A study of Mus musculus with 16 samples.

Results

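Glutathione transferases, UDP-glucuronosyltransferases and sulfotransferases attach a glutathione, sugar acid or sulfate group to drugs, hormones, bile pigments and reactive lipid products, which makes these compounds easier to excrete. Their RNA was examined by family in kidney cortex of mice. The genes were all protein-coding genes whose symbol begins with Gsta, Gstm, Gstp, Gstt, Gsto, Gstk, Gstz, Mgst, Ugt1, Ugt2, Ugt3, Sult1 or Sult2 and which had at least 10 reads in 4 or more of the 16 libraries. This gave 41 genes of 61 with such a symbol, among 14237 protein-coding genes that met the same read minimum. They were 22 glutathione transferases (4 Gsta, 6 Gstm, 3 Gstp, 3 Gstt, 2 Gsto, 2 Mgst, Gstk1 and Gstz1), 14 glycosyltransferases (7 Ugt1, 5 Ugt2 and 2 Ugt3) and 5 sulfotransferases (4 Sult1 and Sult2b1). Below the read minimum were Gstm3, Gstt4, Mgst2, Sult1c1, Sult1e1, Sult2a1 to Sult2a8, Ugt1a8, Ugt1a9, Ugt2a1, Ugt2a2, Ugt2b1, Ugt2b35 and Ugt2b36.

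The mice were males on a C57Bl/6J background, and each of 4 groups had 4 libraries. Degs1iGKO mice (iGKO) carried floxed Degs1 alleles with Rosa26-CreERT2, a tamoxifen-activated recombinase made in most tissues, and Degs1fl/fl littermates (fl/fl) were the controls. Degs1 encodes the desaturase that converts dihydroceramide to ceramide. All mice, controls included, had 3 mg tamoxifen on 5 consecutive days from 9 weeks of age and surgery at 12 weeks, either bilateral ischaemia-reperfusion injury (IRI, with both renal pedicles clamped for 28 min) or a sham operation without clamping, and tissue was taken 24 h later. The groups were iGKO IRI, fl/fl IRI, iGKO sham and fl/fl sham. The deletion was not limited to a kidney cell type, and Degs1 RNA remained in iGKO libraries at 48.4% of the fl/fl level after IRI and 56.8% after sham. For Degs1 all iGKO libraries lay below all fl/fl libraries (exact two-sided permutation p = 0.0286 after each operation, the smallest that 4 libraries against 4 can give). In edgeR's quasi-likelihood test over all genes the log2 fold change of Degs1 was -1.05 ± 0.18 (SE), adjusted p = 0.0325 after IRI and -0.82 ± 0.18 (SE), adjusted p = 0.9999 after sham, with Benjamini-Hochberg adjustment. The call after IRI was lost without any 1 of 6 libraries (fl/fl sham 4, fl/fl IRI 3 or 4, or iGKO IRI 1, 2 or 3).

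Library totals ran from 12704273 to 18816343 reads, and the 41 enzymes together took 0.228% to 0.455% of them. Levels are read counts scaled to library size with TMM factors (CPM), and a log2 fold change is called when its Benjamini-Hochberg adjusted p over all 17972 genes tested is under 0.05 in edgeR's quasi-likelihood test. All 41 enzymes were tested. Of the libraries, fl/fl IRI 1 stood apart in the tubular injury marker Havcr1, at 101 CPM against 710 to 1666 CPM in fl/fl IRI 2 to 4, and iGKO sham 4 had 0.443% mitochondrially encoded counts against 2.05% to 6.48% elsewhere. Results that rest on these 2 libraries are given with and without them. By marker sums, iGKO IRI 3 had 1013 CPM of fat markers against 26.1 to 109 CPM in the other iGKO IRI libraries, and 89.7 CPM of urothelium markers against 0.713 to 15.2 CPM elsewhere. Fibroblast and mural cell markers summed to 6565 CPM in iGKO IRI 2 against 540.0 to 1877 CPM elsewhere, liver markers to 1586 CPM in fl/fl IRI 4 against 364 to 1083 CPM, and fat markers to 698 CPM in fl/fl sham 3. The part of these in the enzyme values was not tested, beyond leaving out each library in turn. All 12 markers of the proximal tubule were detected in every group, with a summed level of 4344 to 22660 CPM over the libraries, and the 6 adrenal cortex markers summed to 3.07 to 20.2 CPM, highest in fl/fl IRI 3, with Cyp11b2 at 0 everywhere.

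In the kidney these enzymes are best known in the proximal tubule, which takes up drugs and metabolites from blood and filtrate. Cytosolic glutathione transferases (alpha, mu, pi, theta, omega and zeta classes), the mitochondrial and peroxisomal kappa class and the microsomal Mgst proteins use reduced glutathione. UDP-glucuronosyltransferases lie in the endoplasmic reticulum membrane and draw on UDP-glucuronate made by Ugdh, and sulfotransferases are cytosolic and draw on the activated sulfate PAPS made by Papss1 and Papss2. Many of the genes respond to the transcription factors NRF2 (gene Nfe2l2), AHR, PXR (Nr1i2) and CAR (Nr1i3), and several to HNF4A in liver and proximal tubule.

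Per length of transcript, the cortex held most RNA of a few members. Gstm1 had 242 CPM per kilobase of exon over the 16 libraries, Ugt3a2 201, Gsta2 199.5, Ugt2b38 167, Sult1d1 123 and Gstp1 92.2. At the other end Sult2b1 had 0.149, Ugt2a3 0.363, Gsto2 0.403 and Gstm6 0.452 CPM per kilobase. Exon lengths include sequence found in other genes, for Gsta2 49.8% and for Gstm1 18.9% of 50-base transcript stretches. The order may depend on how reads of such sequence were counted, which is not given. Within most families 1 gene held most of the summed CPM: Gstm1 74.0% of Gstm, Gstp1 96.6% of Gstp, Ugt1a7c 82.1% of Ugt1, Ugt3a2 87.2% of Ugt3 and Sult1d1 79.3% of Sult1. These shares may also depend on how reads of shared sequence were counted. Of the 50-base stretches, 53.65% for Ugt1a7c and 33.7% for Gstp1 occur in other genes.

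Summed over the 41 enzymes, the level was 2908 ± 134 CPM in iGKO IRI, 2878 ± 526 CPM in fl/fl IRI, 3740.0 ± 894 CPM in iGKO sham and 3895 ± 625 CPM in fl/fl sham kidneys (SD, n = 4 each). By library the sums were 3142, 2953, 2118 and 3298 CPM in fl/fl IRI 1 to 4, against 4773, 3314, 3654 and 3838 CPM in fl/fl sham 1 to 4. No fl/fl IRI library reached the lowest fl/fl sham library. Much of this gap lay in the sugar transferases. Ugt2 summed to 375 ± 124 CPM in fl/fl IRI against 746 ± 218 CPM in fl/fl sham, and Ugt3 to 548 ± 168 CPM against 932 ± 121 CPM. In iGKO kidneys Ugt2 summed to 354 ± 66.4 CPM after IRI against 625 ± 198 CPM after sham, and Ugt3 to 563 ± 81.2 CPM against 820.2 ± 252 CPM. The Ugt1 sums lay close together, at 262 ± 37.4 CPM in iGKO IRI, 259 ± 61.5 CPM in fl/fl IRI, 289 ± 68.3 CPM in iGKO sham and 254 ± 49.7 CPM in fl/fl sham. In bulk cortex, fewer cells of a type and less RNA per cell cannot be told apart.

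**Figure D1:**
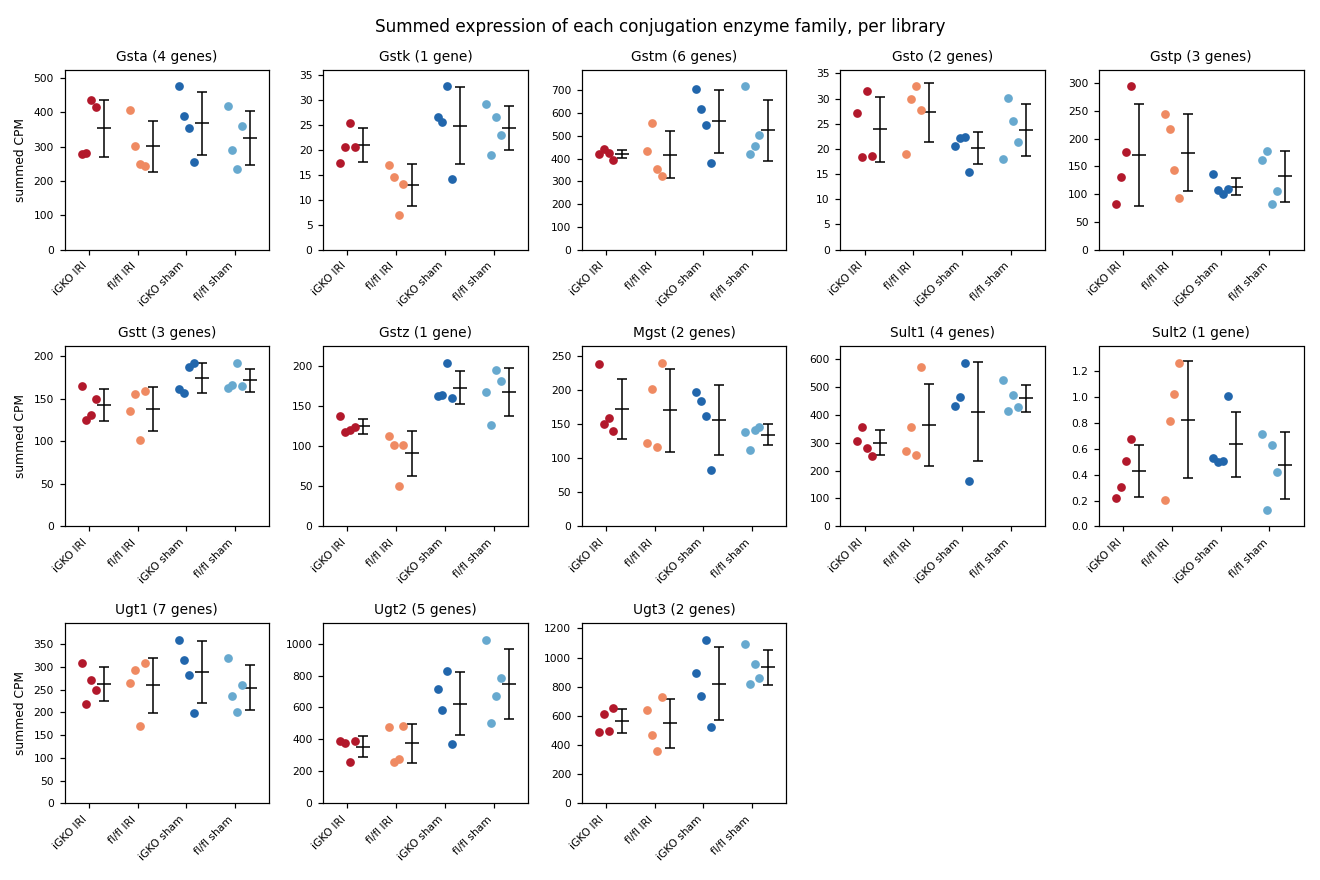
Summed CPM (y axis, linear from 0) of each of the 13 families in every library, with the mean and SD of the 4 libraries of a group beside the points. Ugt2 and Ugt3 sums are lower in fl/fl IRI (means 375 and 548 CPM) than in fl/fl sham libraries (746 and 932 CPM), while the Ugt1 means of the 4 groups stay between 254 and 289 CPM.

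The response of control cortex to ischaemia was read from fl/fl IRI against fl/fl sham kidneys. Of the 41 enzymes, 10 were called, 3 higher and 7 lower, which is 24.4%, against 15.5% of all genes tested (8.46% higher and 7.01% lower). The groups did not overlap in 3 enzymes that were higher and 9 that were lower, against 9.65% and 9.82% of all genes (19.5% in all). The median log2 fold change of the 41 was -0.40, against 0.01 for all genes, with 27 values below 0. Of all genes 49.2% were below 0. At an unadjusted p under 0.05 there were 18 enzymes, against 30.7% of all genes, and DESeq2 called 11, the same 10 and Ugt3a2, against 20.6% of all genes. Gsta1, Gstp3 and Gstm5 rose, and Ugt3a1, Ugt2b38, Gstm2, Ugt2b34, Gstk1, Gstz1 and Gstt1 fell. Over the same libraries 9 of 12 proximal tubule markers were called lower, with sums of 4344 to 16485 CPM in fl/fl IRI against 20389 to 22347 CPM in fl/fl sham, and 11 of 12 tubular injury markers were called higher. Of the markers for the third segment of the proximal tubule 3 of 8 were called lower. Their sums were 1682 to 2455 CPM in fl/fl IRI against 2898 to 4150 CPM in fl/fl sham. Markers called lower also included 3 of 6 for thick ascending limb and 3 of 6 for distal convoluted and connecting tubule. Endothelium had 3 of 7 lower, collecting duct 1 of 9 and podocytes 0 of 5, with 0 higher in each. Slc34a1, the phosphate transporter of the proximal tubule, had 3760.1, 1450.5, 729 and 2038 CPM in fl/fl IRI, against 5158, 4818, 5536 and 4837 CPM in fl/fl sham libraries (-1.35 ± 0.34 (SE), adjusted p = 0.0144). Of the 7 neutrophil markers tested all were called higher, with sums of 25.1 to 225 CPM against 5.45 to 12.1 CPM. The part of these cell-state and cell-type changes in the enzyme values was not tested.

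**Figure D2:**
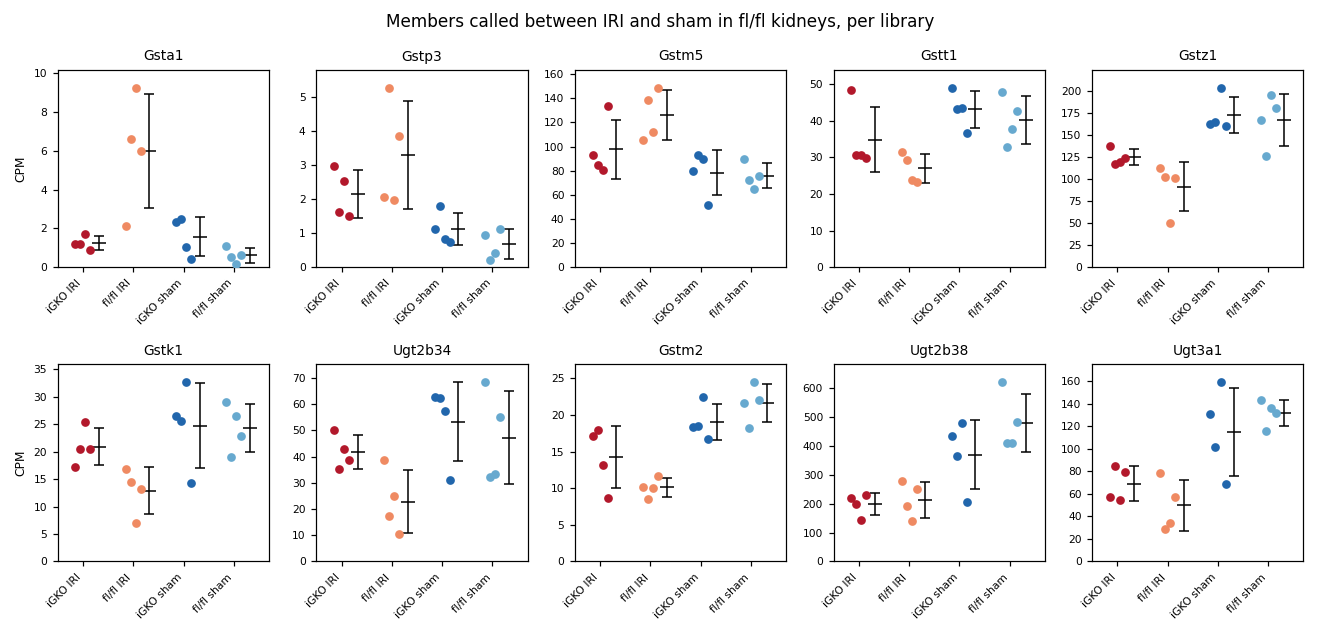
CPM (y axis, linear from 0) of the 10 enzymes called between IRI and sham in fl/fl kidneys, 1 point per library, with the mean and SD of each group. Gsta1, Gstp3 and Gstm5 are higher in fl/fl IRI than in fl/fl sham libraries without overlap, and Ugt2b34 is the only one of the 10 whose fl/fl groups overlap.

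Gsta1 had the largest rise of the 41. Alpha-class enzymes conjugate lipid peroxidation products and reduce lipid hydroperoxides. Gsta1 stood at 2.12, 6.63, 9.27 and 6.00 CPM in fl/fl IRI 1 to 4, against 1.11, 0.519, 0.140 and 0.629 CPM in fl/fl sham 1 to 4. Its log2 fold change was 3.33 ± 0.59 (SE), adjusted p = 0.0025. All 4 fl/fl IRI libraries lay above all fl/fl sham libraries, and fl/fl IRI 1 was the lowest of them. The levels were low throughout, with 31 to 136 reads in fl/fl IRI and 2 to 14 reads in fl/fl sham libraries. In iGKO kidneys Gsta1 had 1.19, 1.17, 1.71 and 0.878 CPM after IRI, against 2.33, 2.48, 1.06 and 0.404 CPM after sham, and the groups overlapped, with a log2 fold change of -0.33 ± 0.55 (SE), adjusted p = 0.992.

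Gsta1 cannot be read apart from its near copies. Of the 50-base stretches of its annotated transcripts, 90.5% also occur in another gene, 75.7% in the predicted gene Gm3776. Over the whole coding sequence Gsta1 is 99.7% identical to Gm3776 and 97.9% to Gsta2. The stretch from coding base 578 to 667 (GENCODE M21, GRCm38, chromosome 9, all 3 genes on that chromosome) is shown because 7 of the 16 positions that differ among the 3 genes lie in it. Capitals mark those positions.
Gsta1: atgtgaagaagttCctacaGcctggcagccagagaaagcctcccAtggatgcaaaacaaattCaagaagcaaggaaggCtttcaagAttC
Gsta2: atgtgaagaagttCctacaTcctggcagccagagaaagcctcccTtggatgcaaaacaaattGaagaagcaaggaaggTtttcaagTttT
Gm3776: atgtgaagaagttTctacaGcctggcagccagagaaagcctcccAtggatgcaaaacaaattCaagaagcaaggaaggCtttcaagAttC
Gm3776 had 1.09, 2.97, 3.54 and 2.02 CPM in fl/fl IRI, against 0.869, 0, 0.210 and 0.419 CPM in fl/fl sham libraries, a log2 fold change of 2.701 ± 0.71 (SE), adjusted p = 0.0182. It too was higher in every fl/fl IRI library, and reads of sequence common to the pair cannot be assigned to 1 gene.

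Gsta2, the most abundant alpha-class member, had no call. It had 296, 216, 152 and 175 CPM in fl/fl IRI, against 287, 194, 165 and 257 CPM in fl/fl sham libraries, and the groups overlapped (log2 fold change -0.11 ± 0.27 (SE), adjusted p = 0.8291). In iGKO kidneys it had 195, 195, 304 and 313 CPM after IRI, against 349, 266, 248 and 146 CPM after sham. Gsta4, which conjugates hydroxynonenal, had 31.4 ± 17.2 CPM against 16.6 ± 1.70 CPM (log2 fold change 0.92 ± 0.38 (SE), adjusted p = 0.109), and Gsta3 had 53.6 ± 27.7 CPM against 83.0 ± 24.2 CPM (-0.63 ± 0.28 (SE), adjusted p = 0.134). Both missed the threshold, with values of opposite sign.

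Among the mu class, 1 member rose and 1 fell. Gstm5 had 105, 139, 112 and 149 CPM in fl/fl IRI, against 89.99, 72.6, 65.1 and 75.8 CPM in fl/fl sham libraries, a log2 fold change of 0.73 ± 0.20 (SE), adjusted p = 0.0231. Every fl/fl IRI library was above every fl/fl sham library. In iGKO kidneys Gstm5 had 92.7, 84.7, 80.2 and 134 CPM after IRI, against 79.7, 92.6, 90.01 and 51.3 CPM after sham, with overlap (0.32 ± 0.20 (SE), adjusted p = 0.917). Gstm2 went the other way, with 10.2, 8.52, 10.1 and 11.6 CPM in fl/fl IRI, against 21.6, 18.3, 24.5 and 22.1 CPM in fl/fl sham libraries and a log2 fold change of -1.10 ± 0.20 (SE), adjusted p = 0.00316. No fl/fl IRI library reached a fl/fl sham library, and fl/fl IRI 1 stood among the other 3. Gstm2 in iGKO kidneys was at 17.2, 17.9, 13.2 and 8.72 CPM after IRI, against 18.4, 18.5, 22.5 and 16.7 CPM after sham (-0.42 ± 0.20 (SE), adjusted p = 0.789).

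Gstm1, the most abundant of the 41 per length, was not called. Its levels were 303, 396, 224 and 157 CPM in fl/fl IRI, against 588, 314, 352 and 389.6 CPM in fl/fl sham, and 297, 326, 317 and 238 CPM in iGKO IRI, against 587, 493, 418 and 299 CPM in iGKO sham libraries. The log2 fold changes were -0.60 ± 0.27 (SE), adjusted p = 0.139 in fl/fl and -0.61 ± 0.27 (SE), adjusted p = 0.757 in iGKO. The 2 values were of about the same size, and in both genotypes the groups overlapped. Gstm4 and Gstm7 had log2 values of -0.85 and -0.65 in fl/fl, and Gstm6, at under 2 CPM in every library, had 0.76, none of them called.

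The promoter of Gstm5 is shown because it was the only called enzyme with a match to the core of the antioxidant response element, the sequence bound by NRF2. The letters searched were TGACNNNGC on both strands of the 300 bases from 250 before to 50 after each RefSeq gene start. A match was present for 4 of the 37 enzymes with a window (10.8%: Gsta3, Gstm5, Gstm7 and Mgst1) and for 14.0% of all genes. No window was held for Gsta4, Gstt2, Ugt1a6b or Ugt3a2. The sequence is from RefSeq, GRCm38.p6, written 5′ to 3′ on the gene's strand, with the match, 42 to 34 bases before the start, in capitals.
Gstm5 (chr3:107895604-107895903, plus strand): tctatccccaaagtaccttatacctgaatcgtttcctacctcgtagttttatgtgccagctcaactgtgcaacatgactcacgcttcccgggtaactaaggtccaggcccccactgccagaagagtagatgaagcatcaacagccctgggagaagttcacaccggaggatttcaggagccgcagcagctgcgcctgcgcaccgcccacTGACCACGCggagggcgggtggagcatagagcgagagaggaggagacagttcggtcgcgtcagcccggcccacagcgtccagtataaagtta
The other enzymes with a match, Gsta3, Gstm7 and Mgst1, had log2 values of -0.63, -0.65 and 0.61 in fl/fl and were not called. Members with these letters thus had values of both signs. The letters TNGCGTG, the core of the xenobiotic response element bound by AHR, occurred on either strand in 3 of 37 enzymes (8.11%: Gsta2, Sult1d1 and Ugt1a5) and 5.84% of all genes, and none of the 3 was called. A match of letters is not a measured binding site.

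Gstp3, a pi-class paralog, rose in fl/fl kidneys and was scarce in all groups. It had 2.05, 5.27, 1.98 and 3.86 CPM in fl/fl IRI, against 0.948, 0.195, 0.419 and 1.12 CPM in fl/fl sham libraries, with no overlap and a log2 fold change of 2.30 ± 0.49 (SE), adjusted p = 0.00687. In iGKO kidneys it had 2.97, 1.604, 2.53 and 1.49 CPM after IRI, against 1.13, 1.79, 0.838 and 0.741 CPM after sham (0.92 ± 0.47 (SE), adjusted p = 0.808). The lowest iGKO IRI library was below the highest iGKO sham library. Gstp1, which detoxifies electrophiles and binds stress kinases, was the main pi-class transcript and varied widely within groups. It had 237, 209, 139 and 88.7 CPM in fl/fl IRI, against 156, 175, 80.6 and 102 CPM in fl/fl sham libraries (0.39 ± 0.36 (SE), adjusted p = 0.492). Its levels in iGKO were 76.9, 126, 171 and 287 CPM after IRI, against 132, 101, 96.9 and 106 CPM after sham (0.60 ± 0.36 (SE), adjusted p = 0.895). Gstp1 and Gstp2 share sequence. Of the 50-base stretches, 33.7% of those of Gstp1 and 54.3% of those of Gstp2 occur in another gene, whereas Gstp3 shared none. Gstp2 had a log2 fold change of 0.23 ± 0.51 (SE), adjusted p = 0.802 in fl/fl.

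Of the theta, kappa and zeta enzymes, 1 of 3 theta members (Gstt1) and the single kappa and zeta members fell in fl/fl kidneys. Gstz1 is the maleylacetoacetate isomerase of tyrosine breakdown. It had 112, 102, 50.2 and 101 CPM in fl/fl IRI, against 167, 126, 195 and 181 CPM in fl/fl sham libraries, a log2 fold change of -0.87 ± 0.20 (SE), adjusted p = 0.0107. No library of fl/fl IRI reached fl/fl sham. In iGKO kidneys Gstz1 had 137, 117, 119.5 and 124 CPM after IRI, against 163, 164, 204 and 160.0 CPM after sham, also without overlap but not called (-0.47 ± 0.20 (SE), adjusted p = 0.749). Gstk1, of mitochondria and peroxisomes, had 16.9, 14.5, 6.95 and 13.2 CPM in fl/fl IRI, against 29.1, 19.0, 26.6 and 22.9 CPM in fl/fl sham libraries (-0.92 ± 0.27 (SE), adjusted p = 0.0291). The fl/fl groups did not overlap, and fl/fl IRI 3 was the lowest library. Gstk1 in iGKO was at 17.3, 20.5, 25.4 and 20.5 CPM after IRI, against 26.6, 25.6, 32.7 and 14.2 CPM after sham (-0.24 ± 0.26 (SE), adjusted p = 0.983).

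Gstt1, a theta-class enzyme that acts on small halogenated compounds, had 31.6, 29.2, 23.8 and 23.3 CPM in fl/fl IRI, against 48.0, 32.8, 37.7 and 42.8 CPM in fl/fl sham libraries (-0.58 ± 0.18 (SE), adjusted p = 0.0386). The gap between the groups was narrow, 31.6 against 32.8 CPM. In iGKO kidneys it had 48.3, 30.6, 30.7 and 29.9 CPM after IRI, against 49.1, 43.3, 43.6 and 36.8 CPM after sham (-0.31 ± 0.18 (SE), adjusted p = 0.88), where iGKO IRI 1 lay well above the other iGKO IRI libraries. Gstt2, the most abundant theta member by CPM, had 69.8, 103, 57.4 and 119.7 CPM in fl/fl IRI, against 83.0, 96.4, 124 and 96.1 CPM in fl/fl sham libraries and a log2 fold change of -0.19 ± 0.21 (SE), adjusted p = 0.585. Gstt3 had -0.43, and the omega enzymes Gsto1 and Gsto2, which reduce dehydroascorbate and mixed disulfides, had 0.23 and -0.72. None of these passed.

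Neither microsomal transferase was called. Mgst1, a membrane glutathione transferase and peroxidase, had 91.9, 162, 79.6 and 209 CPM in fl/fl IRI, against 86.3, 68.1, 98.9 and 101 CPM in fl/fl sham libraries (0.61 ± 0.31 (SE), adjusted p = 0.199). Its fl/fl IRI values split, with replicates 2 and 4 high and replicates 1 and 3 within the sham range. Mgst1 in iGKO was at 185, 109, 113 and 102 CPM after IRI, against 148, 132, 111 and 57.9 CPM after sham (0.18 ± 0.31 (SE), adjusted p = 0.992). Mgst3 had 34.8 ± 4.82 CPM against 46.1 ± 4.47 CPM in fl/fl, with no overlap but no call (-0.40 ± 0.20 (SE), adjusted p = 0.177).

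The Ugt2 family was lower in fl/fl IRI kidneys in 2 called members. The log2 values of all 5 members were below 0, between -1.17 and -0.65, as were 49.2% of all genes below 0. Ugt2b enzymes glucuronidate steroid hormones, fatty acids and drugs. Ugt2b38 had 277, 191, 138 and 249.8 CPM in fl/fl IRI, against 623, 409, 410.2 and 482 CPM in fl/fl sham libraries, with no overlap and a log2 fold change of -1.17 ± 0.26 (SE), adjusted p = 0.009. In iGKO kidneys it had 220.0, 198, 145 and 232 CPM after IRI, against 433, 365, 480.4 and 204 CPM after sham (-0.90 ± 0.26 (SE), adjusted p = 0.546). There 3 of the 4 sham libraries were above all IRI libraries, and iGKO sham 4 was within their range. Ugt2b34 had 38.6, 17.4, 24.8 and 10.4 CPM in fl/fl IRI, against 68.6, 32.04, 33.3 and 55.3 CPM in fl/fl sham libraries (-1.05 ± 0.34 (SE), adjusted p = 0.0475). Its fl/fl groups overlapped through fl/fl IRI 1. In iGKO kidneys Ugt2b34 had 50.3, 35.1, 43.0 and 38.8 CPM after IRI, against 62.8, 62.3, 57.4 and 30.9 CPM after sham (-0.35 ± 0.34 (SE), adjusted p = 0.977).

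The other Ugt2 genes had no call. Ugt2b37 had 133 ± 74.1 CPM in fl/fl IRI against 209 ± 109 CPM in fl/fl sham (log2 fold change -0.65 ± 0.46 (SE), adjusted p = 0.359), Ugt2b5 4.66 ± 2.58 against 7.83 ± 3.22 CPM (-0.75 ± 0.38 (SE), adjusted p = 0.19) and Ugt2a3 0.473 ± 0.366 against 0.774 ± 0.272 CPM (-0.70 ± 0.57 (SE), adjusted p = 0.433). Ugt2b38, Ugt2b5 and Ugt2b37 are close copies. Of the 50-base stretches, 37.4% of Ugt2b38, 41.7% of Ugt2b5 and 18.3% of Ugt2b37 occur in another gene, and the coding sequences of Ugt2b38 and Ugt2b5 are 97.0% identical. The likeness extends upstream of the start. Their RefSeq promoters (GRCm38.p6, 5′ to 3′ on the minus strand) are printed to show this, with the 50 bases from the start on in capitals.
Ugt2b38 (chr5:87424154-87424453, minus strand): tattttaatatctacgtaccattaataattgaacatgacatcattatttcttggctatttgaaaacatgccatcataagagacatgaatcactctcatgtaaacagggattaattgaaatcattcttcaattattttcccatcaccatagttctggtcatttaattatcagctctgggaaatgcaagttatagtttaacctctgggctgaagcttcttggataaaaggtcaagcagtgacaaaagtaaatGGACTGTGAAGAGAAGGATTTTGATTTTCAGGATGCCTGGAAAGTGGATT
Ugt2b37 (chr5:87254739-87255038, minus strand): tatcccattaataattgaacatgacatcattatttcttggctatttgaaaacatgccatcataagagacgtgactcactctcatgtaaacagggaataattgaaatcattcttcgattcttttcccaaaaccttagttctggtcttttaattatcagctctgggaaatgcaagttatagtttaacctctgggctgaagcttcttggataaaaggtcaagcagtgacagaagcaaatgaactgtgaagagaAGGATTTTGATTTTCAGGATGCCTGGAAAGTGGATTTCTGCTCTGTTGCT
Ugt2b5 (chr5:87140291-87140590, minus strand): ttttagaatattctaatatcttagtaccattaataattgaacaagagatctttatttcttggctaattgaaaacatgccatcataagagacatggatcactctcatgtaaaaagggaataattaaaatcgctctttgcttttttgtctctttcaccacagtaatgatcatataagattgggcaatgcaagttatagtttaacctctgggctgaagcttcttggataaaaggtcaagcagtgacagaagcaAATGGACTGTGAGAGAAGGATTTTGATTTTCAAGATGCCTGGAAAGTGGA
When these windows were aligned, Ugt2b38 was 94.8% identical to Ugt2b37 over 286 aligned bases and 90% to Ugt2b5 over 290. Gaps and unaligned ends were not counted. Per kilobase, Ugt2b38 had 167, Ugt2b37 84.3 and Ugt2b5 3.80 CPM over the 16 libraries. How reads of their common sequence were counted is not given, and a relation of promoter sequence to level was not tested.

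Ugt3a1 had the largest fall of the 41. In humans UGT3A1 transfers N-acetylglucosamine rather than glucuronate, and UGT3A2 uses UDP-glucose and UDP-xylose. Ugt3a1 had 78.5, 29.1, 33.9 and 57.1 CPM in fl/fl IRI, against 144, 116, 137 and 132 CPM in fl/fl sham libraries, with a log2 fold change of -1.41 ± 0.29 (SE), adjusted p = 0.00589. No fl/fl IRI library reached fl/fl sham, and fl/fl IRI 1 was the highest of them. In iGKO kidneys it had 56.9, 84.9, 54.8 and 79.9 CPM after IRI, against 131, 102, 159.6 and 68.3 CPM after sham (-0.74 ± 0.29 (SE), adjusted p = 0.689). Only iGKO sham 4 was within the iGKO IRI range. Ugt3a2, with the highest CPM of the 41, had 559, 437, 323 and 674 CPM in fl/fl IRI, against 948, 701, 819 and 731 CPM in fl/fl sham libraries, with no overlap but an adjusted p of 0.0599 (log2 fold change -0.68 ± 0.24 (SE)). Ugt3a2 in iGKO was at 433, 526, 444 and 573 CPM after IRI, against 764, 635, 963 and 459 CPM after sham (-0.51 ± 0.23 (SE), adjusted p = 0.774).

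None of the 7 Ugt1 genes was called, and their log2 values in fl/fl lay between -0.23 and 0.42. These genes make the bilirubin and phenol transferases of the endoplasmic reticulum from 1 locus, each with a first exon of its own joined to common exons, so 52.1% to 79.8% of their 50-base stretches occur in another gene and reads of the common exons cannot be given to 1 member. Ugt1a7c had 222, 257, 148 and 243 CPM in fl/fl IRI, against 275, 195, 175 and 209.6 CPM in fl/fl sham libraries (0.02 ± 0.20 (SE), adjusted p = 0.953). In iGKO kidneys it had 240.1, 177, 189 and 205 CPM after IRI, against 291, 259, 241 and 169 CPM after sham (-0.24 ± 0.20 (SE), adjusted p = 0.969). The ranges overlapped in both genotypes. Ugt1a2, Ugt1a5, Ugt1a6a, Ugt1a6b and Ugt1a10 had log2 values of -0.23, 0.27, -0.11, 0.21 and 0.42. Ugt1a1, the bilirubin transferase, had 3.67 ± 1.48 CPM against 3.86 ± 1.82 CPM in fl/fl (-0.07 ± 0.37 (SE), adjusted p = 0.925).

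No sulfotransferase was called either, although all 4 Sult1 values in fl/fl were below 0, as were 49.2% of all genes. Sult1d1, an amine and phenol sulfotransferase of mouse kidney, had 196, 304, 214 and 549.8 CPM in fl/fl IRI, against 433, 343, 366 and 337 CPM in fl/fl sham libraries (-0.23 ± 0.37 (SE), adjusted p = 0.726). Of the fl/fl IRI libraries 3 were below the sham range and fl/fl IRI 4 was above it. In iGKO kidneys Sult1d1 had 209, 282, 190.0 and 163 CPM after IRI, against 334, 370.3, 458 and 100.5 CPM after sham (-0.58 ± 0.37 (SE), adjusted p = 0.917), where iGKO sham 4 was the lowest of all 16 libraries. Sult1c2 had 68.3, 46.6, 34.4 and 7.46 CPM in fl/fl IRI, against 75.6, 56.8, 86.0 and 76.5 CPM in fl/fl sham libraries (-0.91 ± 0.40 (SE), adjusted p = 0.137), and only fl/fl IRI 1 was within the sham range. Sult1a1, the phenol sulfotransferase, had a log2 fold change of -0.94 ± 0.43 (SE), adjusted p = 0.145, and Sult1b1 one of -0.59 ± 0.43 (SE), adjusted p = 0.374. Sult2b1, a cholesterol sulfotransferase, was near the detection limit, with 0.205, 0.811, 1.02 and 1.26 CPM in fl/fl IRI, against 0.711, 0.130, 0.629 and 0.419 CPM in fl/fl sham libraries (0.82 ± 0.54 (SE), adjusted p = 0.329), and 0.223, 0.308, 0.505 and 0.676 CPM in iGKO IRI, against 0.526, 0.495, 0.503 and 1.01 CPM in iGKO sham libraries (-0.55 ± 0.55 (SE), adjusted p = 0.979). Below the read minimum, Sult1e1, the oestrogen sulfotransferase, had 30, 13 and 307 reads in fl/fl IRI 2, 3 and 4 and at most 3 reads in every other library. Liver markers summed to 1586 CPM in fl/fl IRI 4, the library with 307 reads, against 548 to 720 CPM in fl/fl IRI 1 to 3, and their part in the Sult1e1 reads was not tested.

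Of the 10 calls, those of Gsta1, Gstp3, Gstm2, Gstz1, Ugt2b38 and Ugt3a1 were kept whichever of the 16 libraries was left out. The call of Gstm5 was lost without fl/fl sham 2, 3 or 4 or fl/fl IRI 2 or 4, that of Gstk1 without fl/fl sham 1, 3 or 4 or fl/fl IRI 3 or 4, that of Gstt1 without fl/fl sham 1, 3 or 4, fl/fl IRI 2, 3 or 4 or iGKO sham 2, and that of Ugt2b34 without any 1 of 13 libraries. With only the fl/fl libraries in the fit, the calls of Gstz1, Gstk1, Gstt1 and Ugt2b34 were lost and 6 remained, against 9.03% of all genes, and with scaling by total counts those of Gstt1 and Ugt2b34, against 16.3%. Without fl/fl IRI 1, 16 enzymes were called, 3 higher and 13 lower, against 23.6% of all genes. The added ones were Gsta3, Gstm4, Gstt3, Sult1c2, Ugt2b5 and Ugt3a2, all lower. Without iGKO sham 4, 12 were called, with Mgst3 and Ugt3a2 added as lower, against 20.3% of all genes. Without both libraries 5 were higher and 13 lower, against 30.2% of all genes.

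In iGKO kidneys, IRI against sham gave no call among the 41 enzymes and none among all genes (0.0%) with edgeR. At an unadjusted p under 0.05 there were 6 enzymes and 6.37% of all genes, and DESeq2 called 0 enzymes and 43 genes (0.239%). The 6 were all lower, namely Ugt2b38, Ugt3a1, Gstz1, Gstm1, Ugt3a2 and Gstm6. The median log2 value of the 41 was -0.18, against -0.02 for all genes, with 28 below 0, against 53.6% of all genes. Gsta3 and Gstz1 did not overlap between iGKO IRI and iGKO sham, both lower, against 2.24% of all genes higher and 2.76% lower (5.0% in all). Gsta3 had 71.4, 70.7, 81.1 and 80.1 CPM in iGKO IRI, against 107, 103, 89.0 and 93.9 CPM in iGKO sham libraries (-0.37 ± 0.28 (SE), adjusted p = 0.946). The proximal tubule markers summed to 13304 to 18195 CPM in iGKO IRI against 18377 to 22660 CPM in iGKO sham libraries, with none called. With any 1 of the 16 libraries left out there was again no call among the enzymes.

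**Figure D3:**
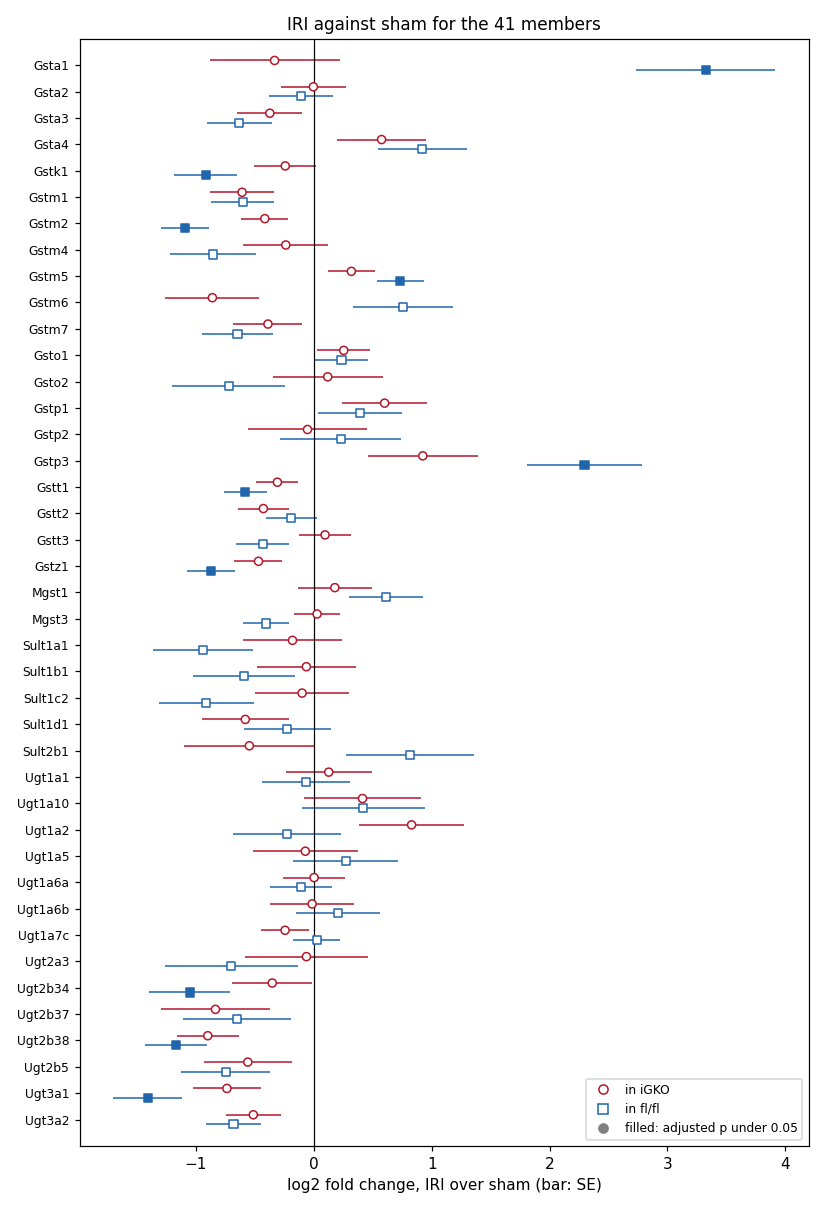
Log2 fold change of IRI over sham (x axis) with its SE for each of the 41 enzymes, in iGKO (circles) and in fl/fl kidneys (squares), filled where the adjusted p is under 0.05. The fl/fl values run from -1.41 (Ugt3a1) to 3.33 (Gsta1) with 10 filled, and the iGKO values from -0.90 to 0.92 with none filled.

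Without injury, iGKO and fl/fl kidneys were compared after sham, and no enzyme was called, nor any gene (0.0%), with edgeR. An unadjusted p under 0.05 was reached by 3 enzymes and 210 genes (1.17%), and DESeq2 called 0 of either. The 3 were Gstm6, Ugt1a10 and Gsta1, each with the higher mean in iGKO. Gstm6 had 1.502, 1.18, 1.73 and 1.15 CPM in iGKO sham, against 0.553, 0.389, 0.559 and 0.629 CPM in fl/fl sham libraries (1.37 ± 0.41 (SE), adjusted p = 0.9999), the only enzyme without overlap, against 1.93% of all genes (1.05% higher and 0.874% lower). Ugt1a10 had 11.2, 6.74, 3.58 and 2.43 CPM in iGKO sham, against 2.13, 1.49, 0.978 and 3.91 CPM in fl/fl sham libraries (1.48 ± 0.52 (SE), adjusted p = 0.9999). The median over the 41 was 0.05, against 0.01 for all genes.

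After IRI, iGKO kidneys were compared with fl/fl kidneys to measure the deletion under injury. None of the 41 enzymes was called with edgeR, against 0.851% of all genes (0.178% higher and 0.673% lower). At an unadjusted p under 0.05 there were 9 enzymes and 19.1% of all genes, and DESeq2 called 3, with Ugt1a2 and Ugt1a10 higher and Gsta1 lower, against 5.24% of all genes. Gsta1 had 1.19, 1.17, 1.71 and 0.878 CPM in iGKO IRI, against 2.12, 6.63, 9.27 and 6.00 CPM in fl/fl IRI libraries, a log2 fold change of -2.27 ± 0.55 (SE), adjusted p = 0.0603. Every iGKO IRI library was below every fl/fl IRI library. Gm3776, its near copy, had 0.223, 0.308, 0.758 and 0.946 CPM in iGKO IRI, against 1.09, 2.97, 3.54 and 2.02 CPM in fl/fl IRI libraries (-2.09 ± 0.67 (SE), adjusted p = 0.12).

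Ugt1a2 was the enzyme with the highest value in iGKO relative to fl/fl kidneys after IRI. It had 15.8, 9.44, 39.7 and 10.6 CPM in iGKO IRI, against 6.84, 3.79, 3.00 and 7.33 CPM in fl/fl IRI libraries, without overlap (1.85 ± 0.46 (SE), adjusted p = 0.062). The iGKO IRI 3 library, at 39.7 CPM and with the high fat and urothelium marker sums given above, was the highest of the 16. Without it the iGKO IRI mean was 11.95 CPM, against 18.9 CPM with it, and the log2 fold change 1.19 (adjusted p = 0.218). After sham Ugt1a2 had 14.1, 14.0, 9.55 and 4.92 CPM in iGKO, against 5.61, 5.84, 4.12 and 8.94 CPM in fl/fl libraries (0.79 ± 0.45 (SE), adjusted p = 0.9999). Ugt1a10 had 10.2, 5.98, 7.33 and 8.24 CPM in iGKO IRI, against 4.79, 3.72, 1.84 and 1.07 CPM in fl/fl IRI libraries, also without overlap (1.48 ± 0.51 (SE), adjusted p = 0.146). Of the 50-base stretches, 63.7% of Ugt1a2 and 63.0% of Ugt1a10 occur in another gene, and reads of these cannot be assigned to 1 of them.

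Gstk1 and Gstz1 were the other enzymes with higher and non-overlapping values in iGKO IRI. Gstk1 had 20.9 ± 3.34 CPM in iGKO IRI against 12.9 ± 4.25 CPM in fl/fl IRI (log2 fold change 0.70 ± 0.26 (SE), adjusted p = 0.177), and Gstz1 125 ± 8.99 CPM against 91.2 ± 27.8 CPM (0.45 ± 0.20 (SE), adjusted p = 0.242). In all, groups did not overlap in 4 enzymes that were higher and 1 that was lower, against 2.48% and 3.04% of all genes (5.52% in all). The median over the 41 enzymes was 0.26, against -0.01 for all genes. In the same libraries the proximal tubule markers summed to 13304 to 18195 CPM in iGKO IRI against 4344 to 16485 CPM in fl/fl IRI. Of these 12 markers 0 were called. The 8 markers of the third segment of the proximal tubule summed to 1303 to 2577 CPM against 1682 to 2455 CPM, also with 0 called. Of the tubular injury markers 7 of 12 were called lower. The part of all these markers in the enzyme values was not tested.

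The comparison after IRI turned on fl/fl IRI 1. Without that library, 8 of the 41 enzymes were called, against 13.6% of all genes. Gsta3, Gstm4, Gstt3, Sult1c2, Ugt1a10, Ugt1a2 and Ugt2b34 were then higher and Gsta1 lower in iGKO IRI. Without iGKO sham 4, a library of neither group compared, Ugt1a2 was called higher and Gsta1 lower, against 1.28% of all genes. Without both libraries 9 were called higher and 1 lower, against 20.9% of all genes.

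**Figure D4:**
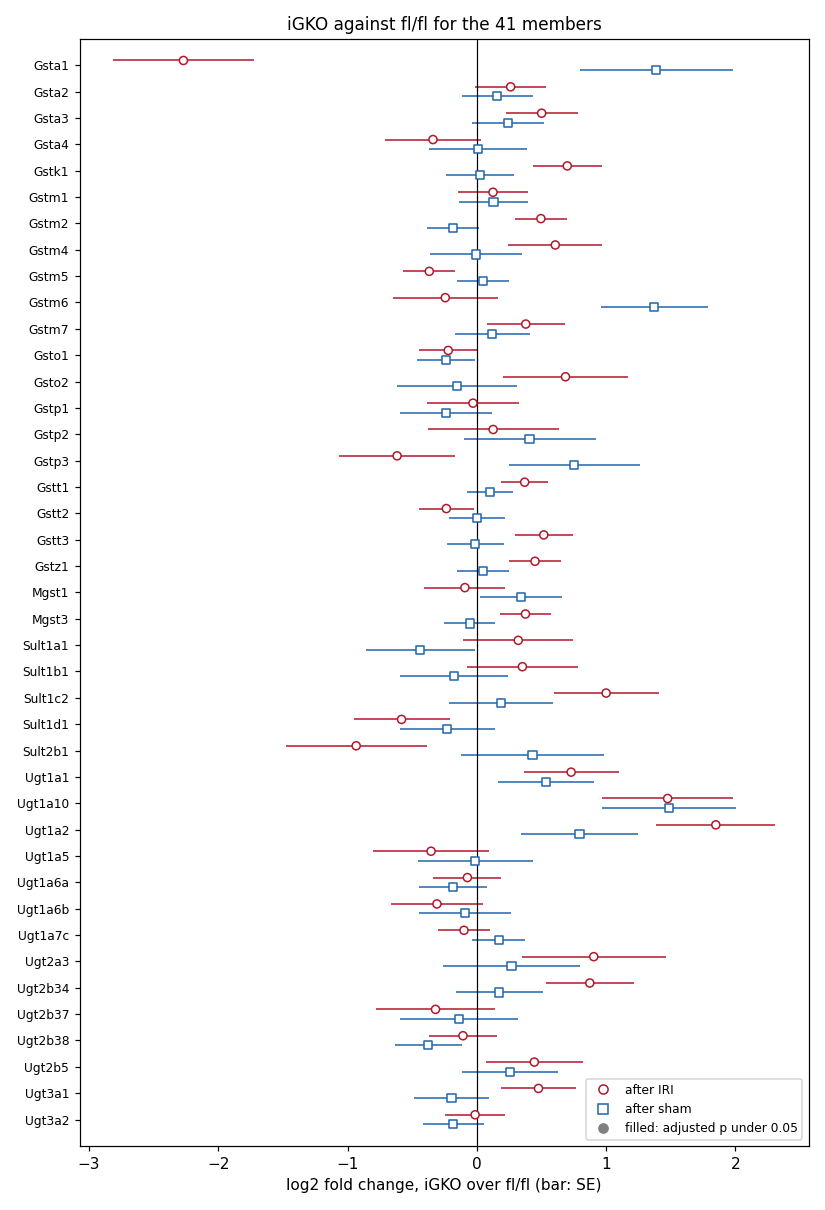
Log2 fold change of iGKO over fl/fl (x axis) with its SE for each of the 41 enzymes, after IRI (circles) and after sham (squares), filled where the adjusted p is under 0.05. No symbol is filled, and the values after IRI run from -2.27 (Gsta1) to 1.85 (Ugt1a2).

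The difference of the 2 responses, that in iGKO minus that in fl/fl, was tested as the interaction of genotype and operation. No enzyme and no gene (0.0%) was called with edgeR, where 3 enzymes and 11.3% of all genes had an unadjusted p under 0.05. DESeq2 called Gsta1 and 0.623% of all genes. Gsta1 had an interaction of -3.66 ± 0.80 (SE), adjusted p = 0.244, Gstm6 -1.62 ± 0.58 (SE), adjusted p = 0.339 and Gstm2 0.68 ± 0.28 (SE), adjusted p = 0.394. Without fl/fl IRI 1, Gsta1 was called lower with edgeR, against 4.22% of all genes, as it was without both fl/fl IRI 1 and iGKO sham 4, against 8.16%. For the other called enzymes of fl/fl kidneys the interaction was -1.37 for Gstp3, -0.42 for Gstm5, 0.67 for Ugt3a1, 0.27 for Ugt2b38, 0.70 for Ugt2b34, 0.68 for Gstk1, 0.40 for Gstz1 and 0.27 for Gstt1, with adjusted p between 0.458 and 0.815. A response called in fl/fl and not in iGKO kidneys is therefore not shown to differ between the genotypes for any of them.

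The genes that supply the cosubstrates and handle the products were read from 7 lists. In fl/fl IRI against fl/fl sham, glutathione synthesis and recycling had 3 of 12 higher and 3 lower, against 8.46% and 7.01% of all genes. Slc7a11, the cystine importer, had 17.1 ± 13.0 CPM in fl/fl IRI against 0.815 ± 1.04 CPM in fl/fl sham (log2 fold change 4.42 ± 0.75 (SE), adjusted p = 0.00205), and Gclc, the catalytic subunit of the limiting enzyme of glutathione synthesis, 693 ± 617 CPM against 268 ± 47.8 CPM (1.37 ± 0.41 (SE), adjusted p = 0.035). The Gclc value rested on fl/fl IRI 4, at 1615 CPM, and without that library the log2 fold change was 0.52 and was not called (adjusted p = 0.188). Its call was also lost without any 1 of the fl/fl sham libraries. Chac1, which degrades glutathione, rose as well (4.00 ± 0.71 (SE), adjusted p = 0.00245). Without fl/fl IRI 4 both Slc7a11 and Chac1 were still called, with log2 values of 3.77 and 3.03, and Slc7a11 had 5.81 without fl/fl sham 1. Cth, which makes cysteine, had 54.5 ± 11.1 CPM against 114 ± 26.0 CPM (-1.06 ± 0.20 (SE), adjusted p = 0.00316), and Ggct and Chac2, of glutathione breakdown, were the other 2 that fell, Ggct with a log2 value of -0.99 and Chac2 to 7.82 ± 3.03 CPM in fl/fl IRI, against 15.6 ± 1.24 CPM in fl/fl sham. The call of Chac2 was lost without fl/fl IRI 2, 3 or 4 or fl/fl sham 1, 3 or 4. The list held genes of synthesis and of breakdown among both those higher and those lower.

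Breakdown of glutathione conjugates to mercapturates, a pathway of the proximal tubule brush border and cytosol, had 0 genes higher and 7 of 21 lower. The shares of all genes were 8.46% higher and 7.01% lower. Dpep1, a brush border dipeptidase, had 58.3 ± 27.5 CPM in fl/fl IRI against 156 ± 23.7 CPM in fl/fl sham (-1.42 ± 0.27 (SE), adjusted p = 0.00412). Slc22a8, an organic anion importer, Acy1, an aminoacylase, and Nat8f3, a relative of the acetyltransferase Nat8, had log2 values of -1.26, -1.54 and -1.57, that of Nat8f3 being -2.18 without fl/fl IRI 1. The list's median was -0.67, against 0.01 over all genes.

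Supply and removal of sulfate had 0 genes higher and 6 of 16 lower, against 8.46% and 7.01% of all genes. Papss1 had 53.9 ± 19.4 CPM in fl/fl IRI against 106 ± 5.49 CPM in fl/fl sham (-0.98 ± 0.21 (SE), adjusted p = 0.00632), and Papss2, the other PAPS synthase, 146 ± 21.98 CPM against 255 ± 40.5 CPM (-0.80 ± 0.18 (SE), adjusted p = 0.00809). Bpnt1, which removes the phosphate of spent PAPS, and Suox, sulfite oxidase, fell with log2 values of -0.82 and -1.17. UDP-glucuronate supply had 2 of 12 genes higher and 1 lower, against 8.46% and 7.01% of all genes. Ugdh, the dehydrogenase that makes UDP-glucuronate, had 237 ± 99.3 CPM against 116 ± 35.1 CPM (1.03 ± 0.27 (SE), adjusted p = 0.0191). Pgm2, a phosphoglucomutase, rose by 1.37 on the log2 scale, and G6pc, glucose-6-phosphatase, had -1.81. The call of Ugdh was lost without fl/fl IRI 4 or fl/fl sham 2, 3 or 4, and that of G6pc without any 1 of the 8 fl/fl libraries except fl/fl IRI 1, where its value was -2.54.

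Other detoxification enzymes had 1 of 27 higher and 7 lower, against 8.46% and 7.01% of all genes. The aldo-keto reductase Akr1b8 had 45.1 ± 29.2 CPM in fl/fl IRI against 2.54 ± 1.31 CPM in fl/fl sham (4.16 ± 0.59 (SE), adjusted p = 0.000871), while the flavin monooxygenases Fmo1 and Fmo5 and the thiopurine methyltransferase Tpmt fell with log2 values of -1.42, -1.49 and -1.23, the call of Fmo1 being lost without fl/fl IRI 3. Of 8 exporters of conjugates, Abcc3 alone was called, against 15.5% of all genes. It was higher, at 13.4 ± 3.08 CPM against 5.90 ± 1.33 CPM (1.19 ± 0.25 (SE), adjusted p = 0.00626). Of 18 regulators tested, Maff alone was called, again against 15.5% of all genes. Maff, a small Maf protein that pairs with NRF2, was at 36.1 ± 25.6 CPM against 3.12 ± 1.17 CPM (3.53 ± 0.48 (SE), adjusted p = 0.00072). The RNA of the receptors and factors themselves had no call, with log2 values of 0.30 for Nfe2l2, 0.13 for its inhibitor Keap1, 0.21 for Ahr, -0.21 for Nr1i2, -0.65 for Nr1i3 and -0.50 for Hnf4a. Their adjusted p lay between 0.124 and 0.684.

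In iGKO IRI against fl/fl IRI, 4 genes of the 7 lists were called, all lower. The lists held 118 genes, not all of which were tested. Over all genes 0.178% were called higher and 0.673% lower in this comparison. Chac1 had 0.939 ± 0.405 CPM in iGKO IRI against 10.1 ± 10.6 CPM in fl/fl IRI (log2 fold change -3.40 ± 0.67 (SE), adjusted p = 0.0392), Akr1b8 6.72 ± 1.20 CPM against 45.1 ± 29.2 CPM (-2.75 ± 0.55 (SE), adjusted p = 0.0392), Maff 7.97 ± 3.12 CPM against 36.1 ± 25.6 CPM (-2.18 ± 0.45 (SE), adjusted p = 0.0398) and Pgm2 19.5 ± 1.58 CPM against 36.3 ± 12.3 CPM (-0.90 ± 0.20 (SE), adjusted p = 0.0479). With only the iGKO IRI and fl/fl IRI libraries in the fit, none of these 4 and no other gene was called (0.0%). All 4 calls were also lost without iGKO IRI 1, 2 or 3 or fl/fl IRI 3 or 4, and the Chac1 value was -2.43 without fl/fl IRI 4. No gene of the 7 lists was called in the other comparisons.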

How the data were processed

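RNA of kidney cortex was sequenced from stranded, rRNA-depleted libraries, per the labels' protocols. The deposited table held counts, whole reads per Ensembl gene for 56980 identifiers, without normalization by the authors. Per the submitters' processing notes, the tools were STAR 2.7.9a, featureCounts 1.6.3, cutadapt 1.16, DESeq2 1.36.0, MultiQC, Picard and FastQC, on build GRCm39 (mm39). Not given in the sources used here are the annotation release, strand setting and handling of multiply mapped reads.

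Symbols, gene types and exon lengths came from GENCODE M21 (GRCm38) by gene identifier (52073 matched). Promoters came from RefSeq (37 of 41 enzymes matched). Identity between members was taken from coding sequences (longest open reading frame of GENCODE M21 transcripts) in place of proteins, which were not used here, and the promoters of the Ugt2 genes were chosen after their values were seen.

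In R 4.3.3, filterByExpr of edgeR 4.0.16 chose the genes tested. Counts were scaled by TMM and fitted in 1 quasi-likelihood model with a coefficient for each of the 4 groups. Tests were two-sided with Benjamini-Hochberg adjustment and a threshold of 0.05. The script was tested on simulated data. The standard error is the log2 fold change divided by the root of F. DESeq2 1.42.0 was an alternative, as were other scalings and filters and leaving out each library. All samples carried 1 batch label. The labels give replicates without naming the animals, so p-values measure the spread between these samples. Members, lists and tests were chosen with earlier results of these data known. Named were every called member, the most abundant member of each family, up to 4 called genes per list, and Degs1, Havcr1, Slc34a1 and a few regulators whatever their result, of which 1 is not reported here. Gm3776, Gsta3, Gsta4, Gstm6, Gstt2, Ugt1a2, Ugt1a10, Ugt2b37, Ugt2b5, Sult1c2 and others below the threshold were added after their values were seen.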

Additional observations from a re-analysis of the deposited data

Results flagged for a closer look

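In 4 members and 2 family sums 1 library stood outside the other 3 of its group by Dixon's 95% criterion (the gap to the nearest library over the group's range). Over 112 groups examined, chance alone flags about 1 in 20. Gstz1 had 203.6 CPM in iGKO sham 3, against 160.0 to 164 CPM in the other iGKO sham libraries. In iGKO IRI 1, Gstt1 had 48.3 CPM, against 29.9 to 30.7 CPM in the other iGKO IRI libraries, and Mgst1 185 CPM, against 102 to 113 CPM. Sult2b1 had 1.01 CPM in iGKO sham 4, against 0.495 to 0.526 CPM in the other iGKO sham libraries. The Gstt sum was 192 CPM in fl/fl sham 3, against 163 to 166 CPM in the other fl/fl sham libraries, and the Ugt2 sum was 256 CPM in iGKO IRI 3, against 377 to 393 CPM in the other iGKO IRI libraries.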

How the results depend on the processing

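In fl/fl IRI against fl/fl sham, the 3 enzymes higher and 7 lower became 3 and 3 when only the 2 groups compared entered the fit (9.03% of all genes), and 5 and 13 without both fl/fl IRI 1 and iGKO sham 4 (30.2% of all genes). With 1 library left out the counts ran from 2 to 4 higher and from 4 to 13 lower, with 13 lower without fl/fl IRI 1 and 4 lower without fl/fl IRI 3 or fl/fl sham 1, 3 or 4. In iGKO IRI against fl/fl IRI, 0 higher and 0 lower became 2 and 1 with DESeq2 (5.24% of all genes), 1 and 1 with no filter (1.02% of all genes) and 9 and 1 without both libraries (20.9%), and the counts with 1 library left out ran from 0 to 7 higher and 0 to 1 lower. For the interaction, 0 lower became 1 (Gsta1) with DESeq2 and without both libraries, and 0 to 1 with 1 library left out. The remaining counts stayed at 0. The cause was not tested. The fit with the replicate number as a block gave 3 higher and 7 lower in fl/fl and 0 in each other comparison. Correlations between same-numbered samples ran from -0.241 to 0.399, so the numbers were not taken to pair the samples. Scaling by total counts, chosen after seeing the data, gave 3 higher and 5 lower (16.3% of all genes), without Gstt1 and Ugt2b34. Of 4872 values of the 41 enzymes under an alternative, 37 lost and 48 gained a call and no called value changed sign, while 217 values that were not called did. Degs1 after IRI (adjusted p 0.0325) lost its call in 8 of 24 settings, namely with the replicate block, with the 2 compared groups alone and without fl/fl sham 4, fl/fl IRI 3 or 4 or iGKO IRI 1, 2 or 3. Family medians in fl/fl kept their sign under every scaling tried; those of Ugt1 and Mgst changed sign with fl/fl IRI 4 left out, and that of Ugt1 without fl/fl sham 2 or 3. At the depth of these libraries some members had few reads. Per library Gstm6 had 6 to 31 reads, Sult2b1 2 to 20, Gsto2 and Ugt2a3 each 2 to 25 and Sult1b1 8 to 44. Gsta1 had 2 to 136 and Gstp3 3 to 78 reads.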
